A study of Mus musculus with 6 samples.

Results

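Bone morphogenetic protein (BMP) signalling and the hepcidin axis of iron control were followed through 10 genes in mouse liver tumours. The genes were Bmp2, Bmp6, Hamp, Id1, Smad6, Smad7, Tfrc, Tfr2, Hfe and Slc40a1, out of 12393 genes that the array measured under a single symbol. Every probe set whose single symbol was one of these names was taken. The names themselves had been chosen by earlier results of the same comparison, the log2 differences between genotypes on these 6 arrays, so the differences are given as a description and support nothing. The table held 19 probe sets for them. Of these, 16 were tested, and the other 3 were Affymetrix control probe sets for Tfrc.

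Each of 6 arrays held a liver tumour of a different male mouse, 3 of wild-type and 3 of Alb/AEG-1 mice. All 6 mice had received the hepatocarcinogen N-nitrosodiethylamine (DEN) at 10 µg per g body weight when 14 days old, and their tumours were collected at 28 weeks, so no untreated or tumour-free liver stood beside them. The Alb/AEG-1 mice carried a transgene for AEG-1 (astrocyte elevated gene-1, which Mtdh encodes), injected as a 5.3-kb fragment into embryos of B6CBAF1/J parents. Its name refers to the albumin gene, whose promoter is active in hepatocytes. CD-1 is given as the background strain of both groups, and the number of founder lines is not given in the sources used here.

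Values are log2 expression levels. The array medians lay between 5.82 and 5.84, and across probe sets the arrays' pairwise Pearson's r was 0.987 to 0.993. The 10 measured hepatocyte markers, among them Alb and Ttr, averaged between 13.43 and 13.64 on every array. This shows hepatocyte genes in each sample and, with no tumour-free liver measured, does not tell tumour from other liver. The brightest Mtdh probe set differed by 0.20 ± 0.13 log2 (SE), with overlapping groups. The dimmer Mtdh probe sets differed by between -0.09 and 0.19, so the probe sets did not share a direction. The labels do not say whether any of them can detect the transgene. By their animal numbers, which the labels do not call a batch, wild-type replicate 1 goes with Alb/AEG-1 replicates 1 and 2 (lower numbers), and Alb/AEG-1 replicate 3 goes with wild-type replicates 2 and 3 (higher numbers). Differences within these ranges are given beside the genes.

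In liver, the ligands BMP2 and BMP6 come largely from endothelial cells and act on hepatocytes. They bind BMP receptors, which phosphorylate SMAD proteins, and these switch on Hamp, Id1 and the inhibitory SMADs Smad6 and Smad7, which dampen the signal. Hamp encodes hepcidin, the peptide hormone that makes cells degrade ferroportin (Slc40a1), the iron exporter, and so lowers the release of iron into blood. HFE and transferrin receptor 2 (Tfr2) take part in sensing circulating iron, and transferrin receptor 1 (Tfrc) imports transferrin-bound iron.

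Among the 10 genes, Bmp2 was the gene whose groups did not overlap (1 of 16 probe sets, where 14.7% of all probe sets on the array had separated groups). It was lower in all 3 Alb/AEG-1 tumours, while Hamp, Bmp6 and Smad7 had lower means with overlapping groups. Id1 and Tfrc had higher means with a wide spread between animals. Tfr2, Hfe and Smad6 had group means that lay within 0.03 log2 of each other by their brightest probe set.

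**Figure D1:**
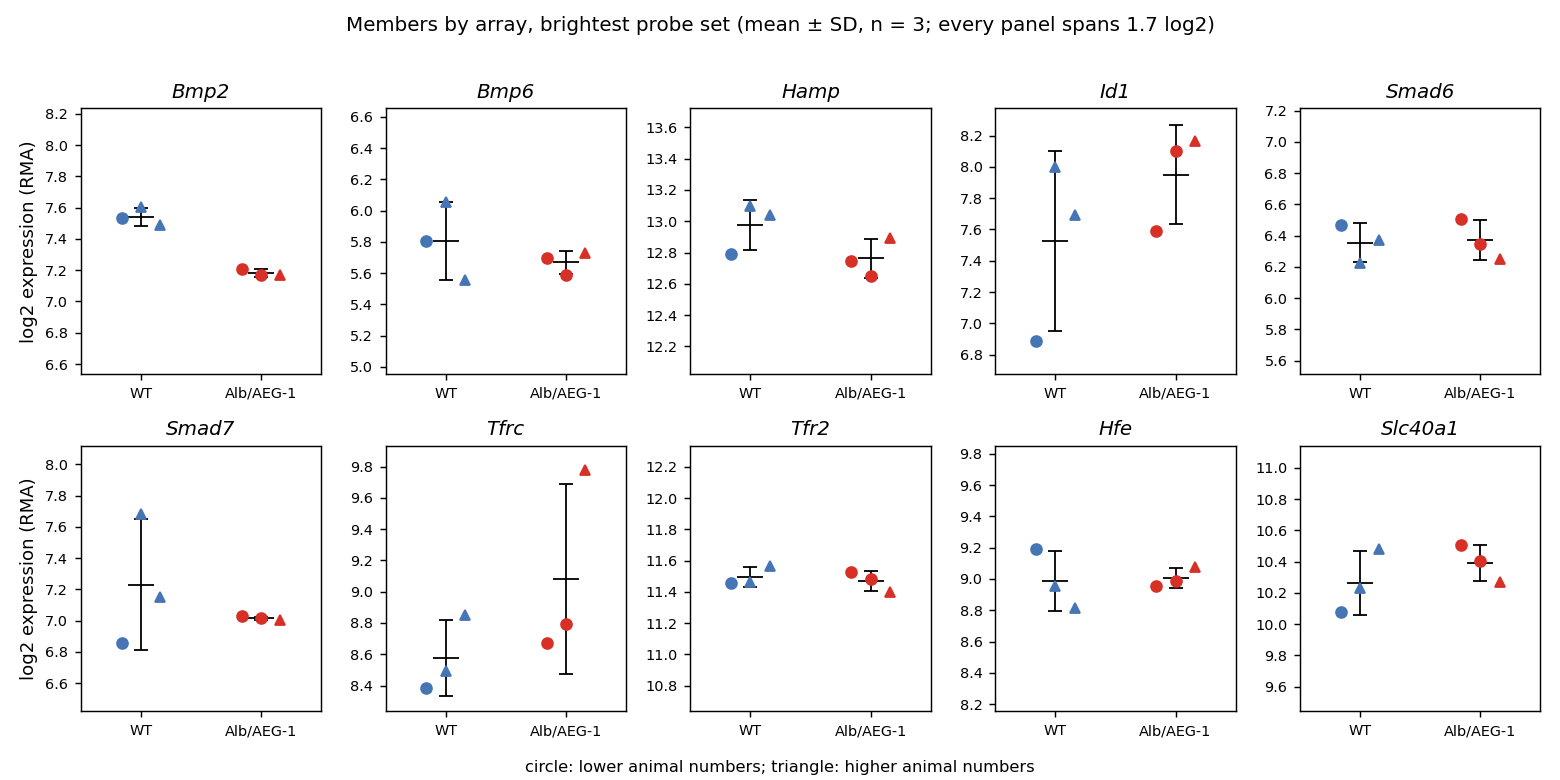
Log2 expression (vertical axis) of the 10 genes by genotype (horizontal axis), 1 point per array, brightest probe set, with mean and SD (n = 3 per group). Circles are lower and triangles higher animal numbers. The Bmp2 values of the Alb/AEG-1 tumours, 7.17 to 7.21, all lie below those of the wild-type tumours, 7.49 to 7.60, while the other 9 genes overlap between groups.

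The ligand gene Bmp2 was at 7.53, 7.60 and 7.49 in wild-type replicates 1, 2 and 3 and at 7.21, 7.17 and 7.17 in Alb/AEG-1 replicates 1, 2 and 3. The highest Alb/AEG-1 value lay below the lowest wild-type value, and the spread within each group was narrow (SD 0.06 and 0.02, n = 3 each). The difference, Alb/AEG-1 minus wild type, was -0.36 ± 0.08 log2 (SE; 95% interval -0.54 to -0.18), which is 1.28-fold lower. It was -0.34 among lower and -0.38 among higher animal numbers, and between -0.38 and -0.33 when any 1 array was left out.

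The spread of Bmp2 was among the narrowest measured: 2.97% of the probe sets had a smaller SD within groups. The median absolute difference over all probe sets was 0.10 log2. With limma and adjustment over all 22626 probe sets, the p of Bmp2 was 0.596, which did not pass 0.05.

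Bmp6, the ligand whose hepatic expression follows iron load, was at 5.80, 6.05 and 5.55 in wild-type and at 5.70, 5.59 and 5.73 in Alb/AEG-1 tumours. Wild-type replicates 2 and 3 held the highest and the lowest value of all 6 arrays, so the Alb/AEG-1 values lay inside the wild-type range. The difference was -0.13 ± 0.13 log2 (SE; 95% interval -0.44 to 0.17), and -0.01 without wild-type replicate 2. It was -0.16 among lower and -0.08 among higher animal numbers. Its mean lay below that of the median probe set, 5.83.

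Both ligands are made by liver endothelial cells, whose markers were measured beside them. Over 16 of 16 endothelial markers, the mean per array ran from 6.77 to 6.84 in wild-type and from 6.77 to 6.83 in Alb/AEG-1 tumours. The sum of their linear levels ran from 2665 to 2849 and from 2628 to 2683. Of the 16 markers, 7 had a positive and 9 a negative difference, with a median of -0.01. Lyve1, a hyaluronan receptor of lymphatic and sinusoidal endothelium, had the smallest p and differed by 0.52 ± 0.22 (limma, adjusted p = 0.616). Its difference was 0.13 among lower and 1.09 among higher animal numbers. The markers next in p had lower means in Alb/AEG-1 tumours: Tie1 (-0.23 ± 0.11), Emcn (-0.18 ± 0.10), Fcgr2b (-0.22 ± 0.12) and Clec4g (-0.16 ± 0.10). The part of endothelial cells in the Bmp2 values was not tested. In a bulk tumour, fewer cells of a type and less RNA per cell cannot be told apart.

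Hfe and Tfr2 act upstream of hepcidin at the hepatocyte surface. Tfr2 had the narrowest range over the 6 arrays of the 10 genes, at 11.46, 11.46 and 11.57 in wild-type tumours and at 11.53, 11.48 and 11.40 in Alb/AEG-1 tumours. These values came from a probe set of the x_at type, which may bind related transcripts. All 6 lay within 0.17 log2 of each other, and the difference was -0.03 ± 0.08 log2 (SE; 95% interval -0.22 to 0.17). The other Tfr2 probe set differed by -0.01 ± 0.08. Both turned between the animal numbers, with 0.05 and 0.07 among lower and -0.11 and -0.10 among higher numbers.

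Hfe encodes an MHC class I-like protein that associates with transferrin receptors. It was at 9.19, 8.96 and 8.81 in wild-type and at 8.95, 8.99 and 9.08 in Alb/AEG-1 tumours, with the wild-type animals at both ends. The difference was 0.02 ± 0.11 log2 (SE; 95% interval -0.24 to 0.28). It was -0.22 among lower and 0.19 among higher animal numbers, and its second, dimmer probe set differed by 0.16 ± 0.19.

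The inhibitory SMADs and Id1 are direct targets of the BMP pathway and serve as readouts of its activity. Smad6 was at 6.47, 6.22 and 6.37 in wild-type and at 6.51, 6.35 and 6.25 in Alb/AEG-1 tumours. The groups overlapped almost wholly, and the difference was 0.01 ± 0.10 log2 (SE; 95% interval -0.23 to 0.26). It was -0.04 among lower and -0.05 among higher animal numbers.

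Smad7 was at 6.86, 7.68 and 7.15 in wild-type and at 7.03, 7.01 and 7.01 in Alb/AEG-1 tumours. Wild-type replicate 2 stood 0.53 above the next array, whereas the Alb/AEG-1 tumours were nearly identical (SD 0.01 against 0.42, n = 3 each). The difference was -0.21 ± 0.19 log2 (SE; 95% interval -0.66 to 0.23). It was 0.01 without wild-type replicate 2, 0.16 among lower and -0.41 among higher animal numbers.

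Id1, a dominant-negative helix-loop-helix protein, was at 6.89, 8.0 and 7.69 in wild-type and at 7.59, 8.10 and 8.16 in Alb/AEG-1 tumours. The low end was a single animal, wild-type replicate 1, which lay 0.70 below the next array. The difference was 0.43 ± 0.29 log2 (SE; 95% interval -0.24 to 1.09) and 0.11 without that array. It was 0.96 within the lower animal numbers, where wild-type replicate 1 is the sole wild-type array, and 0.32 within the higher. Its direction was opposite to that of Bmp2, Bmp6, Smad7 and Hamp.

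**Figure D2:**
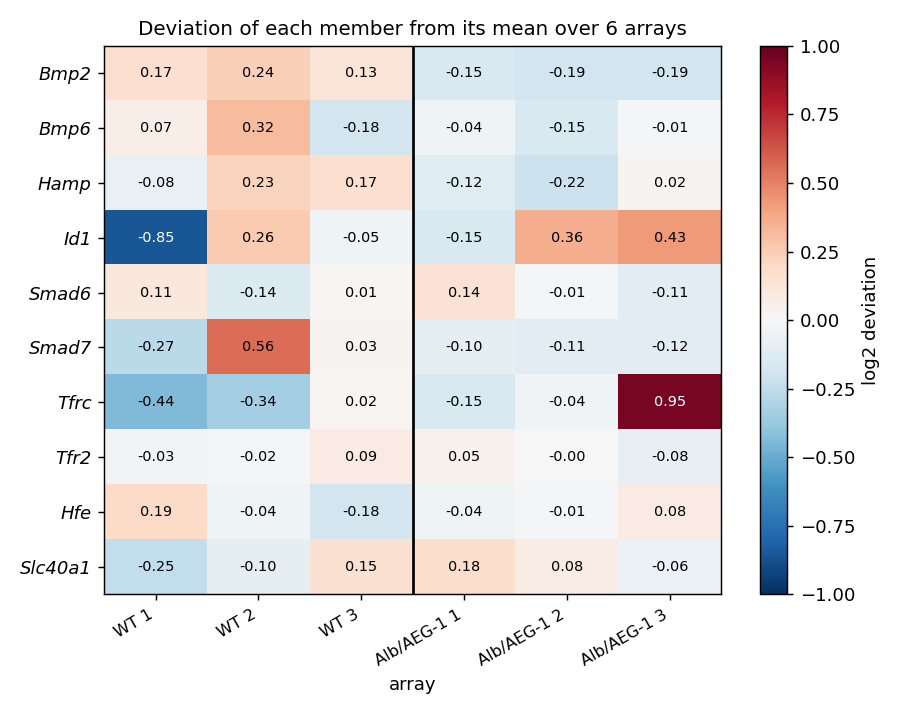
Log2 deviation of each gene (rows) from its own mean over the 6 arrays (columns), brightest probe set. Wild-type replicate 2 holds the highest value of Bmp2, Bmp6, Hamp and Smad7, with deviations of 0.24, 0.32, 0.23 and 0.56, and wild-type replicate 1 the lowest value of Id1, at -0.85.

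Hamp had a high signal on every array. The values were 12.79, 13.09 and 13.04 for the wild-type replicates and 12.74, 12.65 and 12.89 for the Alb/AEG-1 replicates. Alb/AEG-1 replicates 1 and 2 were the lowest, and Alb/AEG-1 replicate 3 lay above wild-type replicate 1. The difference was -0.21 ± 0.11 log2 (SE; 95% interval -0.47 to 0.05), a 1.16-fold lower level that with this spread could lie between 1.03-fold higher and 0.720 times the wild-type level. The second Hamp probe set, of the x_at type, gave -0.21 ± 0.12. In the first probe set the difference was -0.09 among lower and -0.17 among higher animal numbers, and between -0.31 and -0.15 when any 1 array was left out. In the second it was -0.12 and -0.14 among lower and higher numbers.

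Hamp2, a paralogue of Hamp that is not among the 10 genes, had a probe set of the x_at type that may also bind Hamp. It was at 11.11, 11.48 and 11.34 in wild-type and at 10.35, 10.26 and 11.84 in Alb/AEG-1 tumours. Alb/AEG-1 replicates 1 and 2 lay below all wild-type arrays and Alb/AEG-1 replicate 3 above them, so the difference of -0.49 ± 0.39 log2 (SE) turned within the animal numbers, from -0.80 in the lower to 0.43 in the higher. The order of the Alb/AEG-1 tumours was the same as for Hamp, over a range of 1.58 log2 for all 6 arrays against 0.44 for Hamp. The second Hamp2 probe set, dimmer and not of that type, differed by -0.22 ± 0.13, with -0.04 among lower and -0.44 among higher numbers.

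The promoter of Hamp is shown because it carries the inputs that the other genes report on: a BMP-responsive element and a site for STAT3, the factor activated by interleukin-6. The sequence is the 250 bases upstream of the RefSeq transcription start, at chr7:30944030-30944279 of GRCm38.p6, minus strand, written 5′ to 3′. Capitals mark a match to GGCGCC and, 6 bases further on, a match to TTCNNNGAA.
Hamp: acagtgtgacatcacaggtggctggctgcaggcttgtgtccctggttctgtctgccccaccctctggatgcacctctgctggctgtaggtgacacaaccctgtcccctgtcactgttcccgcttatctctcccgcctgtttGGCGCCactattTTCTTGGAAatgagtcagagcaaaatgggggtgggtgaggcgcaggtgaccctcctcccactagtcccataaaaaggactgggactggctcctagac

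Of the 10 genes, 6 had a promoter in the RefSeq table, in 9 windows of 300 bases (250 before to 50 after a start), and Bmp2, Id1, Smad7 and Slc40a1 had none there. Each window was searched for GGCGCC, TTCNNNGAA, GTCTAGAC (a SMAD-binding palindrome) and CACGTG (an E-box), each of which reads the same on both strands. GGCGCC lay in the Hamp window, 109 to 104 bases before the start, and in 1 of 2 Tfrc windows, 89 to 84 bases before, while 11.9% of all 32851 windows held it. TTCNNNGAA lay in the Hamp window alone, 97 to 89 bases before the start, against 8.3% of all windows. GTCTAGAC lay across the start of Smad6, against 0.213%, and CACGTG in Bmp6, against 7.15%. GGCGCC followed within 20 bases by TTCNNNGAA, a combination looked for after the Hamp match was seen, occurred in 8 of the 32851 windows. A match is a description of letters and not a measured binding site.

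The Tfrc stretch around its match is shown for comparison, since the same letters lie there without TTCNNNGAA. It runs from 119 to 54 bases before the start, at chr16:32608777-32608842 of GRCm38.p6, plus strand, with GGCGCC in capitals.
Tfrc: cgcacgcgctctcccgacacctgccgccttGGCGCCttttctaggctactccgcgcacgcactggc

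By its brightest probe set, Tfrc was at 8.39, 8.49 and 8.85 in wild-type and at 8.68, 8.79 and 9.78 in Alb/AEG-1 tumours. Alb/AEG-1 replicate 3 stood 0.93 above the next array, and the other Alb/AEG-1 values lay inside the wild-type range. The difference was 0.51 ± 0.29 log2 (SE; 95% interval -0.16 to 1.17) and 0.16 without that array. It was 0.35 among lower and 1.11 among higher animal numbers. The further Tfrc probe sets were dimmer and differed by -0.16 ± 0.14 and -0.12 ± 0.11, so the probe sets of the gene did not share a direction. The 3 Affymetrix controls for Tfrc lay near the bottom of the scale, between 3.03 and 3.48.

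Macrophages take up and recycle iron, and the mean of their markers, though not each marker, was highest on the same array. The mean over 14 of 16 listed macrophage and Kupffer cell markers stood at 7.03, 6.62 and 6.75 in wild-type tumours and at 6.97, 7.25 and 7.43 in Alb/AEG-1 tumours, highest in Alb/AEG-1 replicate 3. The sum of their linear levels ran from 2117 to 3007 in wild-type and from 2912 to 4078 in Alb/AEG-1 tumours. Of these markers 13 had a positive difference, and 0 passed an adjusted p of 0.05 with limma (5 of 14 had an unadjusted p below 0.05, all positive, where 3.86% of all genes did with Alb/AEG-1 higher). The list's difference was 0.08 among lower and 0.75 among higher animal numbers. The part of macrophages in the Tfrc values was not tested. Erythroid cells are another cell type rich in Tfrc. Of 11 listed erythroid markers 6 were measured, and they averaged 5.36 to 5.44 in wild-type and 5.36 to 5.43 in Alb/AEG-1 tumours. Only 2 of the 6 lay at or above the level of the median probe set, and the part of erythroid cells was not tested.

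The exporter gene Slc40a1 was at 10.08, 10.23 and 10.48 in wild-type and at 10.50, 10.40 and 10.27 in Alb/AEG-1 tumours. The ranges overlapped, and the difference was 0.13 ± 0.12 log2 (SE; 95% interval -0.16 to 0.41), with 0.10 ± 0.17 in the second probe set. Both probe sets turned between the animal numbers: the differences were 0.37 and 0.38 within the lower and -0.09 and -0.22 within the higher. Ferroportin is abundant in macrophages as well as hepatocytes, and Alb/AEG-1 replicate 3, with the highest macrophage marker mean, had the lowest Slc40a1 value of its group. That is a single array, and the part of macrophages in the Slc40a1 values was not tested.

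**Figure D3:**
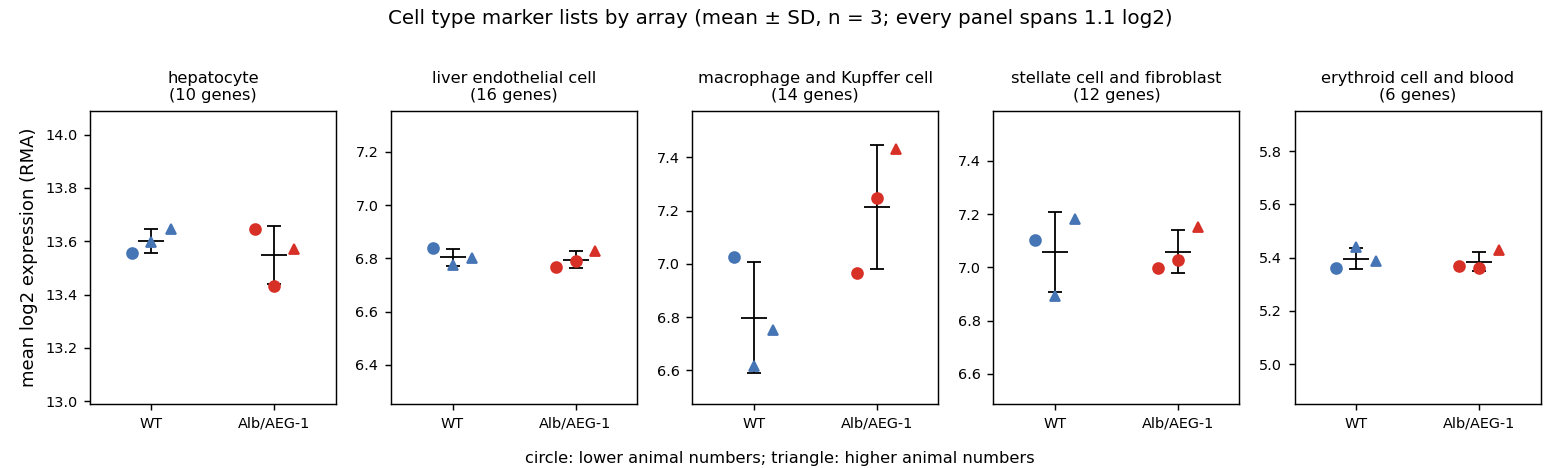
Mean log2 expression (vertical axis) of 5 cell type marker lists by genotype (horizontal axis), 1 point per array, with mean and SD (n = 3 per group). The macrophage list runs from 6.62 to 7.03 in wild-type and 6.97 to 7.43 in Alb/AEG-1 tumours, while the endothelial list stays between 6.77 and 6.84 on all 6 arrays.

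The probe sets of the 10 genes were also counted by call, beside the share over all probe sets. With limma and Benjamini-Hochberg adjustment, 0 of their 16 probe sets passed 0.05, with adjusted p between 0.596 and 0.986, where 0.00442% of all probe sets passed. At an unadjusted p below 0.05 there was 1 of 16, the Bmp2 probe set, where the share over all probe sets was 8.06%. Groups were separated in 1 of 16, against 14.7% of all probe sets (8.38% with Alb/AEG-1 lower and 6.28% with it higher). When the fit held a term for the animal number range, 3 of 16 had an unadjusted p below 0.05, where 6.63% of all probe sets did. Without wild-type replicate 1 there were 4 of 16, against 11.4% of all. Because the genes were chosen on this contrast, nothing is read from these counts. Of the 16 differences 7 were positive and 9 negative, with a median of -0.02 against -0.01 over all probe sets.

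**Figure D4:**
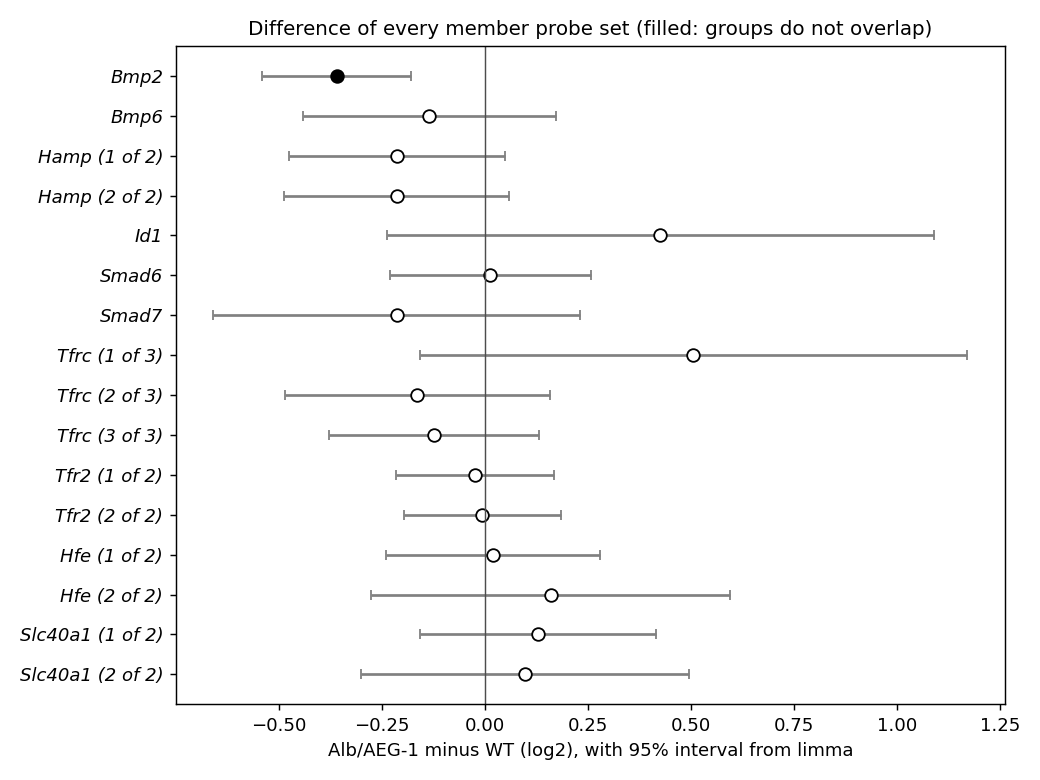
Difference in log2 expression, Alb/AEG-1 minus wild type (horizontal axis), for each of the 16 probe sets (vertical axis), with limma's 95% interval. The Bmp2 interval runs from -0.54 to -0.18 and the intervals of the other 15 probe sets include 0. The Tfrc probe sets lie on both sides of 0, at 0.51, -0.16 and -0.12.

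Animal-to-animal variation was compared between genes of the axis over the 6 arrays, in 8 pairs. Hamp and its regulator Smad7 had a Pearson's r of 0.737 (exact permutation p = 0.0597, adjusted p = 0.433 over the 8 pairs; Spearman's rho 0.543, exact p = 0.297, adjusted p = 0.983). Without wild-type replicates 2 and 3, the arrays farthest from the Hamp median, r was -0.197. That left 4 arrays over a narrower range of Hamp, too few to show whether a relation held. The r was 0.533 without replicate 2 alone, 0.816 without replicate 3 alone and 0.687 after centring each genotype. Hamp and Bmp2 gave r = 0.691 (exact permutation p = 0.144, adjusted p = 0.433) and rho = 0.638 (exact p = 0.2, adjusted p = 0.983), with r = 0.130 without the same arrays and 0.210 after centring each genotype.

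Hamp and Bmp6 gave r = 0.466 and rho = 0.371 (exact permutation p = 0.367 and 0.497, adjusted p = 0.587 and 0.983), with r = 0.704 without wild-type replicates 2 and 3. Hamp and Id1 gave r = 0.160 and rho = 0.086 (exact permutation p = 0.807 and 0.919, adjusted p = 0.883 and 0.983), with -0.034 without them and 0.761 after centring each genotype. Id1 and Smad7 gave r = 0.430 and rho = 0.086 (exact permutation p = 0.322 and 0.919, adjusted p = 0.587 and 0.983; r = 0.336 without the 2 arrays farthest from the Id1 median). That r was 0.790 after centring each genotype and 0.078 without wild-type replicate 1. Smad6 and Smad7 ran opposite ways, with r = -0.646 and rho = -0.314 (exact permutation p = 0.163 and 0.564, adjusted p = 0.433 and 0.983; r = -0.447 without the 2 farthest arrays).

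The ligands were also set against the endothelial markers across animals. Bmp2 and the endothelial mean gave r = 0.059 and rho = -0.029 (exact permutation p = 0.883 and 0.983, adjusted p = 0.883 and 0.983; r = 0.346 without the 2 farthest arrays), and Bmp6 gave r = -0.112 and rho = 0.086 (exact permutation p = 0.857 and 0.919, adjusted p = 0.883 and 0.983; r = 0.674 without the 2 farthest). Of the 8 pairs, 0 passed an exact permutation p of 0.05, with or without adjustment. The smallest p that 6 arrays allow is 0.00278.

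The genes closest to each member in pattern were taken by Pearson's r over the 6 arrays, among 7014 other genes at or above the median level (7015 for Bmp6, itself below it). For Bmp2 they were Phldb1 (r = 0.995), the urea cycle gene Otc (0.989) and Lrrc61 (0.988), and for Bmp6 Supv3l1 (0.994), Ceacam2 (0.993) and Wipi1 (0.980). For Hamp they were Gne (0.997), Cit (0.994) and Cadps2 (0.987). For Id1 they were Il10rb (0.980), Gorasp1 (0.972) and Cbx5 (0.968), for Smad6 Rbpms (0.991), Styx (0.986) and Ap2a2 (0.985), and for Smad7 Npr2 (0.994), Ap2b1 (0.984) and Egr3 (0.984). For Tfrc they were Laptm5 (0.984), Atp6v0e (0.976) and Hdhd2 (0.964), for Tfr2 Mphosph9 (0.987), Arih1 (0.980) and Usp36 (0.961), for Hfe Mcat (0.996), Sesn3 (0.985) and Fdft1 (0.973), and for Slc40a1 Camsap1 (0.998), Ndufv2 (0.983) and Edem3 (0.977). Over 6 arrays the highest r among so many genes lies near 1 for each member, from 0.961 to 0.998 among those named, so these are a description of pattern alone.

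Other genes of the pathway were read from 7 lists by role, 113 measured genes in all, with 1 probe set per gene. In limma 0 of them passed 0.05 when adjusted over all probe sets (smallest adjusted p = 0.596). At an unadjusted p below 0.05 there were 7 with higher and 4 with lower values in Alb/AEG-1 tumours, where 3.86% and 4.47% of all genes lay. The median difference over the 113 was 0.02, against -0.01 over all genes.

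Among 9 targets of BMP signalling other than the members, 2 had an unadjusted limma p below 0.05. Both had higher values in Alb/AEG-1 tumours, where 3.86% of all genes lay. Of the 9 differences 5 were positive and 4 negative, with a median of 0.04. Id3, a relative of Id1, was at 8.96, 9.25 and 9.13 in wild-type and at 9.92, 9.45 and 9.66 in Alb/AEG-1 tumours, without overlap. Its difference was 0.56 ± 0.14 log2 (SE, limma, adjusted p = 0.596), in the direction opposite to Bmp2. Hes1, which is also a target of Notch signalling, differed by 0.51 ± 0.18 (adjusted p = 0.609), and Tgif1, a SMAD co-repressor, by 0.26 ± 0.17.

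Of 23 other ligands and antagonists 1 had an unadjusted p below 0.05, the dim Bmp8b (0.32 ± 0.13 log2, limma, adjusted p = 0.616). At that threshold 3.86% of all genes had higher and 4.47% lower values in Alb/AEG-1 tumours. Inhbe, a hepatic activin subunit, differed by 0.61 ± 0.27, and Bmp10, a circulating ligand made in the heart, by -0.22 ± 0.11 with separated groups. Of 11 receptors and co-receptors 0 had an unadjusted p below 0.05 in limma. The 3 with the smallest p were Bmpr1b, a type I receptor (0.15 ± 0.10), Bambi, a decoy receptor that BMP signalling induces (0.15 ± 0.10), and Acvr1, a type I receptor that acts in hepcidin control (0.14 ± 0.12, with 0.23 ± 0.11 and -0.03 ± 0.12 in its other probe sets). Of 10 SMAD transducers and modifiers 0 had an unadjusted p below 0.05 in limma, with Smad3 at -0.14 ± 0.09 (0.03 ± 0.14 in its second probe set), the phosphatase gene Ppm1a at -0.11 ± 0.11 and Ctdsp1 at 0.10 ± 0.10.

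**Figure D5:**
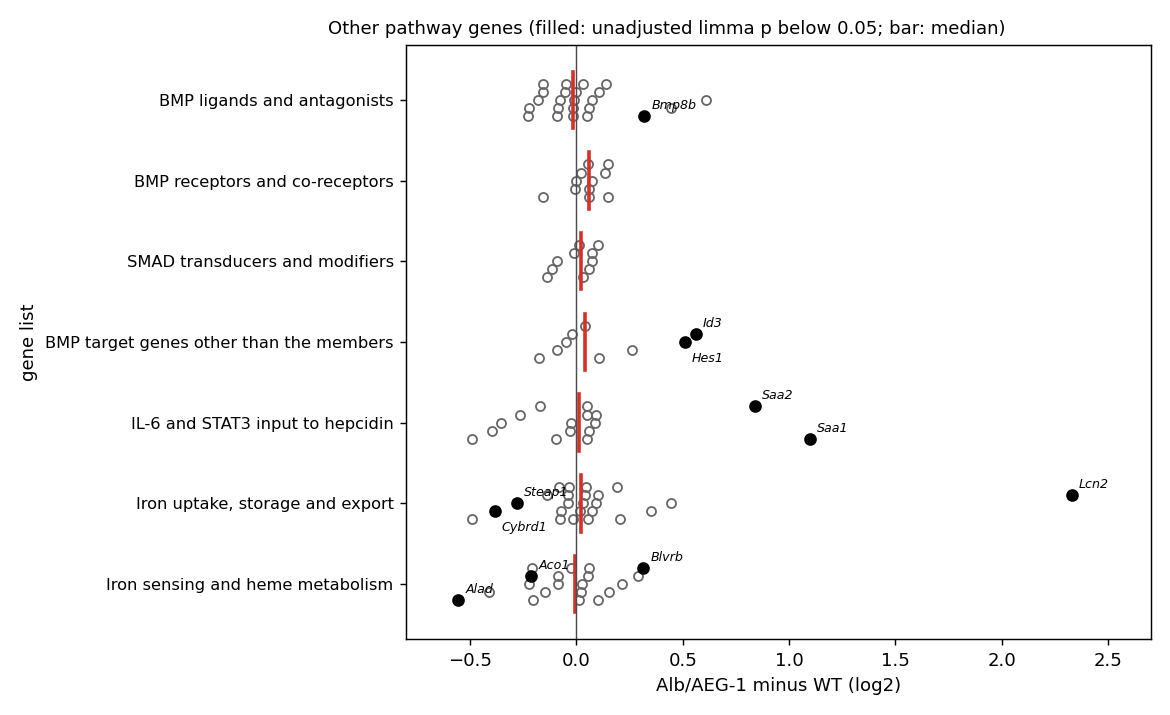
Difference in log2 expression, Alb/AEG-1 minus wild type (horizontal axis), of 113 other genes in 7 lists (vertical axis), 1 point per gene. Filled points have an unadjusted limma p below 0.05 and bars are list medians, which lie between -0.02 and 0.06. Lcn2 lies farthest out, at 2.33.

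Interleukin-6 acts on Hamp through STAT3 and also drives acute phase genes. Of 16 genes of this input 2 had an unadjusted limma p below 0.05, both with higher values in Alb/AEG-1 tumours, where 3.86% of all genes lay. Of the 16 differences 8 were positive and 8 negative. Saa1, an inducible serum amyloid, was at 9.26, 9.33 and 9.39 in wild-type and at 10.34, 11.23 and 9.70 in Alb/AEG-1 tumours, and the groups differed by 1.1 ± 0.33 log2 (SE, limma, adjusted p = 0.596) without overlap, and Saa2, from a probe set of the x_at type, differed by 0.84 ± 0.27. Alb/AEG-1 replicate 2, with the highest Saa1 value, had the lowest Hamp value, and the Alb/AEG-1 tumours ran in reverse order for Saa1 and Hamp. The wild-type tumours did not, as replicate 1 was their lowest in both genes. A relation between Saa1 and Hamp was not tested. Il6ra, the interleukin-6 receptor, differed by -0.49 ± 0.22 and by -0.44 ± 0.15 in its second probe set. The first of these was 0.04 among lower and -0.72 among higher animal numbers, and the second -0.21 and -0.44.

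Of 24 genes of iron uptake, storage and export, 3 had an unadjusted limma p below 0.05. In Alb/AEG-1 tumours 1 of them was higher and 2 were lower, where 3.86% and 4.47% of all genes lay. Lcn2, which binds bacterial siderophores, was at 5.05, 4.75 and 5.27 in wild-type and at 6.35, 8.44 and 7.26 in Alb/AEG-1 tumours, and the groups differed by 2.33 ± 0.46 log2 (SE, limma, adjusted p = 0.596). Values below wild type were seen for Steap1, of a family of metalloreductases (-0.28 ± 0.09, an s_at probe set that may bind related transcripts, with 0.02 ± 0.09 in the other), and Cybrd1, a ferric reductase (-0.38 ± 0.14), both dim. Of 20 genes of iron sensing and heme metabolism 3 had an unadjusted limma p below 0.05, 1 higher and 2 lower, beside the same shares of all genes. They were Blvrb, a biliverdin reductase (0.32 ± 0.10), Alad, of heme synthesis (-0.56 ± 0.20), and Aco1, which encodes iron regulatory protein 1 (-0.21 ± 0.08, an x_at probe set, with -0.14 ± 0.09 in the other).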

How the data were processed

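Labelled cRNA from 5 µg of tumour RNA was hybridized to Affymetrix arrays, per the labels' protocols. The deposited values are log2 expression levels that the authors made with RMA, per the submitters' processing notes (version not given). RMA makes the arrays' distributions alike, which removes any change common to most genes. Centring of the deposited values beyond RMA is not stated, and scanner files were not used here.

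Of 22690 probe sets, 64 Affymetrix controls were left out and 22626 tested. Symbols came from the platform annotation, updated by gene ID through RefSeq (GRCm38.p6): 20380 probe sets had 1 symbol, 691 several and 1555 none, and only single symbols were named. A gene's main probe set had the highest mean over the 6 arrays.

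Genotype labels gave the groups, and different animal numbers in the titles mark separate mice. The fit used lmFit and eBayes of limma 3.58.1 (R 4.3.3, 7.53 degrees of freedom). Its p-values were adjusted across all 22626 probe sets by Benjamini-Hochberg, and it was tested on simulated data. Correlations used exact 2-sided permutation. Promoters came from RefSeq.

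The 10 genes and the gene lists were chosen with earlier results of these data known. The text names all 10, the 3 genes with the smallest p in each pathway list, the 3 genes closest in pattern to each of the 10, and Mtdh. Hamp2, Lyve1, Tie1, Emcn, Fcgr2b and Clec4g were added after their values were seen. A planned protein comparison and an alternative for linear values were not run.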

Additional observations from a re-analysis of the deposited data

How the results depend on the processing

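Bmp2 stayed lower in Alb/AEG-1 tumours (-0.41 to -0.33 log2, limma adjusted p between 0.339 and 0.869) under every alternative run: other moderation (trend, robust), other normalization (quantile, median centring), array weights, a term for the range of animal numbers, dim or cross-binding probe sets left out, all probe sets of a gene averaged, control probe sets kept (chosen after seeing the data) and each array left out. Under the same alternatives Hamp (-0.31 to -0.13) and Bmp6 (-0.26 to -0.01) stayed lower and Id1 (0.11 to 0.66), Tfrc (0.07 to 0.73) and Slc40a1 (0.04 to 0.24) higher, except that Bmp6 had no value with dim probe sets left out. For Bmp2, with a single bright probe set, other moderation, choices of probe sets and kept controls could not move the difference from -0.36. The Bmp2 groups do not overlap, so leaving out 1 array could not turn its direction. Since the gene was chosen on this contrast, its stability supports nothing. Quantile normalization turned Smad6 to -0.0090 and Hfe to -0.021, and the animal number term turned them to -0.044 and -0.014. With 1 array left out, Smad6 ran from -0.055 to 0.072, Smad7 from -0.40 to 0.011, Tfr2 from -0.054 to 0.011 and Hfe from -0.067 to 0.12.

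The count of the members' probe sets at an unadjusted p below 0.05 rose from 1 to 3 with the animal number term, and lay between 1 and 4 with 1 array left out (4 with wild-type replicate 1 out, 3 with Alb/AEG-1 replicate 3 out). Over all probe sets the share was 8.06% in the plain fit, 6.63% with the term, 11.4% with wild-type replicate 1 out and 8.56% with Alb/AEG-1 replicate 3 out. Separated probe sets then numbered 1 to 5 of 16, where fewer arrays separate more easily. The share over all probe sets was not counted with 1 array left out, so nothing is read from these numbers. Pathway genes with lower values at that threshold fell from 4 of 113 to 2 of 78 without dim and 2 of 112 without cross-binding probe sets. In these fits 6.75% and 8.11% of all probe sets passed it, in either direction. With 1 array left out, those with lower values were 1 to 6 (1 without wild-type replicate 3) and those with higher values 5 to 8. The share of all probe sets then ran from 5.33% to 11.4%, and nothing is read from these counts. In all these fits 0 members and 0 pathway genes passed an adjusted limma p of 0.05, with 1823 probe sets at an unadjusted p below 0.05 in the plain fit.

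With 1 array left out, r ran from -0.069 to 0.536 for Hamp with Id1, from -0.213 (without wild-type replicate 2) to 0.929 (without wild-type replicate 3) for Hamp with Bmp6, from -0.310 to 0.431 for Bmp2 with endothelial markers (-0.574 after centring each genotype) and from -0.315 to 0.569 for Bmp6 with them. The causes were not tested. No paired analysis was possible because the labels match no animals between groups. The replicate numbers used here follow the order of the arrays and pair nothing. With 3 arrays a group, differences of the size seen in Hamp were not resolved.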
